A study of Mus musculus with 2 samples.

Results

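The 10 genes described here encode neuropeptides of hippocampal neurons, or a protein that binds one: Sst (somatostatin), Npy (neuropeptide Y), Vip (vasoactive intestinal peptide), Cck (cholecystokinin), Tac1 (precursor of substance P), Penk (proenkephalin), Pdyn (prodynorphin), Crh (corticotropin-releasing hormone), Crhbp (CRH binding protein) and Nts (neurotensin). They were chosen by symbol, and each matched 1 of the 19059 genes in the files. All 10 had UMIs in both libraries.

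Neuropeptides are cut from larger precursors, stored in dense-core vesicles and released by sustained firing, and they act on G protein-coupled receptors at some distance from the release site. In the hippocampus, GABAergic interneurons are sorted by the peptides they make. Somatostatin cells contact distal dendrites, basket cells with cholecystokinin contact cell bodies, VIP cells mainly contact other interneurons, and neurogliaform and ivy cells make neuropeptide Y. Granule cells of the dentate gyrus, which are excitatory, make dynorphin and enkephalin in their mossy fibers.

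Single-cell RNA-seq was done on flash-frozen hippocampus of C57BL/6 mice, in a study of both sexes, that were 21 months old when treatment began. The control group had standard chow, and the tomatidine group had 0.05% tomatidine, a steroidal alkaloid, in the diet for 3 months. Hippocampi of 4 mice per group were pooled into 1 library, so there is no replicate check, and no test between the groups was made. A difference between the mice, the dissections or the libraries cannot be told apart from one between the diets.

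The assay counts unique molecular identifiers (UMIs) on probe pairs bound to transcripts of fixed cells. The control library held 279525565 UMIs over 15912 cells and the tomatidine library 259059908 UMIs in 15185 cells, and 292 cell barcodes occurred in both. After filtering, 15115 and 14502 cells remained, with medians of 7077 and 7408 UMIs. Levels are CPM, counts per 1e6, the UMIs of a gene scaled to the sum of all UMIs of a class of cells in a library. The number of probes differs between genes, so levels were compared between classes and libraries and never between genes. Intervals are 95% and cover counting error only. Positions of genes are those of the GENCODE annotation of the mm10 build.

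Cells fell into 36 clusters, found without the 10 genes, and 26 of these were named from markers as "-like" classes. All 17 interneuron markers were raised at least 2-fold in interneuron-like cells of either library (565 control and 520 tomatidine cells). Some classes were present in unequal numbers. Striatal projection neuron-like cells numbered 82 in the control and 2 in the tomatidine library. An unnamed cluster led by Ebf3 and Pou4f2 had 183 control and 669 tomatidine cells, and one led by Gata3 and Sox14 had 180 and 512. Thalamic neuron-like cells (272 and 225) were also present. Markers of striatum and thalamus were thus found in tissue labelled as hippocampus, and shares and totals over a library are given with and without unequal classes where these moved them. In 5 clusters a library had over 3 times the share of cells of the other. They were the striatal and the Ebf3 and Pou4f2 ones, and choroid plexus-like cells (342 and 34). The others were led by Igfbpl1 and Prdm12 (156 and 30) and by Gpr151 and Tac2 (125 and 34). The Gata3 and Sox14 cluster was below this limit and was never left out.

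RefSeq promoters of GRCm38.p6, the assembly of the mm10 build, were given for 8 of the 10 genes. Penk and Crh were not matched. The cAMP response element, the binding site of CREB, was searched on both strands as TGACGTCA, and its core as TGACG, which the full element holds on each strand. Only the Sst promoter held the full element, which starts 48 bases before the start site, and 1.79% of 32851 promoters of the same 300 bases held it. The core was found in 6 of the 8 genes (Sst, Vip, Cck, Tac1, Crhbp and Nts) and in 20.8% of all promoters. The 150 bases before the start site are shown for 4 genes that separate the interneuron subtypes described further on, with each core on either strand in capitals.
Sst, chr16:23890845-23890994, minus strand: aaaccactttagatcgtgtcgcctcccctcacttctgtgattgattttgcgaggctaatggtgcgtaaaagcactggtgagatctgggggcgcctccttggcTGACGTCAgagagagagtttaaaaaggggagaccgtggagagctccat
Crhbp, chr13:95444832-95444981, minus strand: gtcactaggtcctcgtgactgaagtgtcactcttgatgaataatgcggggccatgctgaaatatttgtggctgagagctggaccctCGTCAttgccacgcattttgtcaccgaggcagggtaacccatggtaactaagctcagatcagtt
Vip, chr10:5639068-5639217, plus strand: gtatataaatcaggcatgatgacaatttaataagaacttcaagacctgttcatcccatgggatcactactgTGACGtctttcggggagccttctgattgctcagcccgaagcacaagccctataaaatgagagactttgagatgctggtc
Cck, chr9:121495695-121495844, minus strand: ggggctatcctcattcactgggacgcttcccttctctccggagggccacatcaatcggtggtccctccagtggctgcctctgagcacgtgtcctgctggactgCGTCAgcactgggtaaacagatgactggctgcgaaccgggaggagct
In the Vip sequence the core lies 79 bases before the start site, and in the Cck sequence 47. A match is a match of letters and no measure of binding.

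Of the 10 genes, 5 had their highest level in interneuron-like cells in both libraries: Sst, Npy, Vip, Crh and Crhbp. For each of them the lower of the interneuron values was above the higher value of the next class. Sst (chr16:23889573-23890958, minus strand), which inhibits release of other transmitters, had 71773 UMIs in control interneuron-like cells (5378 CPM) and 47145 in tomatidine ones (3910 CPM). Of all Sst UMIs, these cells held 87.0% (control) and 73.6% (tomatidine), or 90.2% and 81.9% without the 5 clusters in which a library had over 3 times the share of cells of the other. The next classes were unnamed. Sst was at 509 and 196 CPM in a cluster led by Igfbpl1 and Prdm12, at 465 and 211 CPM in the Gata3 and Sox14 cluster, and at 106 and 307 CPM in the Ebf3 and Pou4f2 cluster. These neighbours overlapped in range and cannot be ordered.

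Npy (chr6:49822710-49829507, plus strand), which dampens excitatory transmission, was at 1267 CPM in control and 1128 CPM in tomatidine interneuron-like cells, with 16906 and 13604 UMIs. By the mean of the libraries the Gata3 and Sox14 cluster came next at 173 and 44.3 CPM, with a range that overlapped those of several classes after it. Vip (chr10:5639218-5647617, plus strand) was at 590 and 515 CPM in interneuron-like cells, and these cells held 90.3% and 82.8% of its UMIs. Crh (chr3:19693401-19695396, minus strand), the main starter of the stress axis, was at 38.4 and 32.3 CPM there, from 512 and 389 UMIs. Crhbp (chr13:95431371-95444924, minus strand), which binds CRH outside cells, was at 387 and 257 CPM. All 5 genes thus stood lower in the tomatidine interneuron-like cells than in the control ones.

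Cck (chr9:121489824-121495694, minus strand) was spread over excitatory classes. It had 1213 CPM in control and 1181 CPM in tomatidine CA1 pyramidal neuron-like cells, the highest class in both libraries. Excitatory neurons without a type followed with 1058 and 1110 CPM, then CA2 or CA3 pyramidal neuron-like cells with 1027 and 938 CPM. Thalamic neuron-like cells had 783 and 824 CPM, and interneuron-like cells, the fifth class in order, had 657 and 518 CPM. The ranges of these 5 classes did not overlap between neighbours. The granule, CA1, CA2 or CA3, subicular or cortical and untyped excitatory classes together held 70.0% of control and 70.7% of tomatidine Cck UMIs. This sum leaves out the thalamic neuron-like cells, with 9246 and 6196 Cck UMIs, and the unnamed clusters. The interneuron-like cells held 9.55% and 7.17%.

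Penk (chr4:4133531-4138819, minus strand), Pdyn (chr2:129686565-129699844, minus strand) and Tac1 (chr6:7554879-7565834, plus strand) were highest in striatal projection neuron-like cells, which express these precursors in the striatum. In the 82 control cells Penk was at 7202 CPM, Tac1 at 1019 CPM and Pdyn at 374 CPM. These 82 cells held 37.1% of all Penk UMIs, 31.1% of all Tac1 UMIs and 12.2% of all Pdyn UMIs of the control library. The 2 tomatidine cells had 23 Penk UMIs, 23 Tac1 UMIs and 5 Pdyn UMIs.

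Within the hippocampal classes, Penk was highest in CA1 pyramidal neuron-like cells, at 279 CPM in control and 244 CPM in tomatidine. Interneuron-like cells (146 and 177 CPM) and then dentate granule neuron-like cells (109 and 134 CPM) followed, with no overlap of ranges between these 3 classes. The unnamed Ebf3 and Pou4f2 cluster (82.9 and 235 CPM) overlapped the last 2 of them. The unnamed Gata3 and Sox14 cluster had more Penk by the mean of the libraries, at 642 and 274 CPM, and overlapped the CA1 range. The granule neuron-like cells formed 2 large clusters that differed in Penk in both libraries, and a smaller one with 270 and 167 cells. In the cluster led by C1ql2 and Plk5, Penk was at 238 CPM in 1318 control cells and at 294 CPM in 1035 tomatidine cells. In the cluster led by Dsp and Tdo2 it was at 13.9 CPM in 1149 and at 16.0 CPM in 915 cells. Cck had the opposite order, with 93.9 and 117 CPM in the first cluster and 265 and 306 CPM in the second. Pdyn, the other opioid precursor of these cells, differed little, with 59.7 and 60.8 CPM in the first and 59.2 and 63.3 CPM in the second.

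Pdyn was at 58.7 CPM in control and 61.7 CPM in tomatidine granule neuron-like cells. These cells held 56.8% and 67.4% of its UMIs, or 64.7% and 67.5% without the striatal projection neuron-like cells. Nts (chr10:102481756-102490486, minus strand) was the one gene of the 10 with hardly any signal in interneuron-like cells, with 11 UMIs in control and 32 in tomatidine. By the mean of the libraries it was highest in the unnamed Igfbpl1 and Prdm12 cluster, at 88.4 CPM (331 UMIs) in 156 control cells and 0 in 30 tomatidine cells. Next came excitatory neurons without a type, with Nts at 35.7 and 33.5 CPM. Of the 2 clusters without a type, the one led by Igfn1, Dkkl1 and Cckbr carried it, at 45.0 and 44.5 CPM, against 7.20 and 2.47 CPM in the other. Nts was also in the list of leading genes of that cluster, so this is a description of the cluster.

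**Figure D1:**
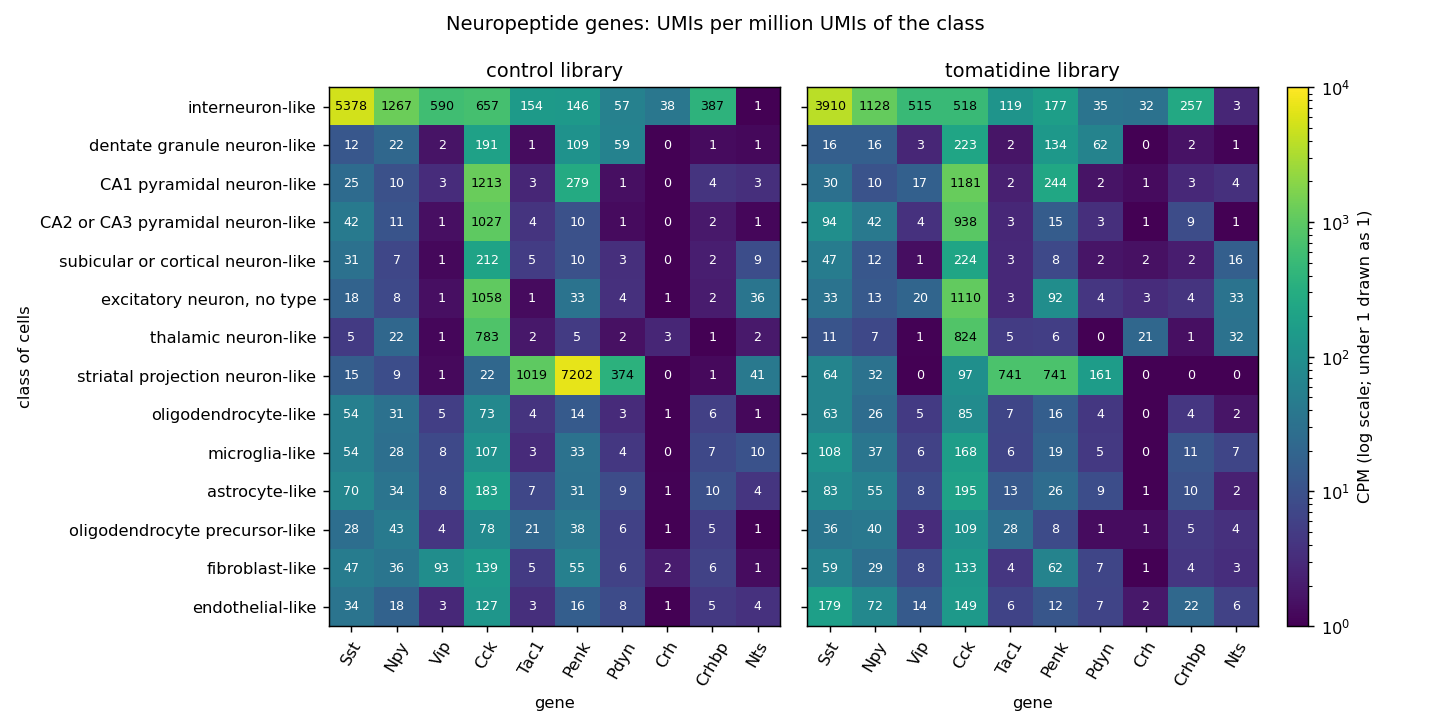
CPM of the 10 genes (columns) in 14 classes of cells (rows) of the control library (left) and the tomatidine library (right), with color on a log scale. Interneuron-like cells stand highest for Sst (5378 and 3910 CPM), Npy, Vip, Crh and Crhbp, CA1 pyramidal neuron-like cells for Cck (1213 and 1181 CPM), and the striatal projection neuron-like cells for Penk, Tac1 and Pdyn.

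Shares of cells with a UMI were taken with each cell thinned to 1500 UMIs, since depth differs between classes. Median depth was 15000 and 15178 UMIs in control and tomatidine interneuron-like cells, 5335 and 4899 in oligodendrocyte-like cells, and 3067 and 2839 in microglia-like cells. Oligodendrocytes and microglia are not known as sources of these peptides, and their shares were used to gauge free RNA. Comparisons with oligodendrocyte-like cells in CPM, given further on, are not thinned. Free RNA per cell need not scale with depth, so a lower CPM in deeper cells does not show that a gene is background. Thinning left out 17 control and 7 tomatidine interneuron-like cells.

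Sst was found in 38.4% of thinned control interneuron-like cells (95% interval 34.4 to 42.7) and in 33.6% of tomatidine ones (29.5 to 37.9). The share was 5.53% and 5.50% in oligodendrocyte-like cells and 6.90% and 7.53% in microglia-like cells. Without thinning, 48.8% and 46.9% of interneuron-like cells had a Sst UMI, against 15.7% and 13.7% of oligodendrocyte-like cells. The difference between the libraries was −4.81 points (−10.5 to 0.97), within counting error.

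Thinned shares of Npy were 33.0% in control and 30.9% in tomatidine interneuron-like cells, against 3.10% and 3.32% in oligodendrocyte-like cells. For Crhbp they were 24.5% and 19.1%, a difference of −5.47 points (−10.4 to −0.49), against 0.77% and 0.70% in oligodendrocyte-like cells. Cck was in 28.2% and 26.5% of interneuron-like cells, but also in 10.4% and 10.2% of oligodendrocyte-like and 13.6% and 16.5% of microglia-like cells, so single Cck UMIs carry little weight. Vip was in 9.75% and 11.8%, Tac1 in 10.1% and 8.26%, Penk in 10.1% and 11.5%, Crh in 4.07% and 4.41%, and Pdyn in 2.93% and 3.75% of interneuron-like cells. The oligodendrocyte-like share was at most 1.96% for each of these 5 genes. The Nts share, 0.30% and 0.34%, was at the level of oligodendrocyte-like cells (0.23% and 0.28%) and was read as background.

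**Figure D2:**
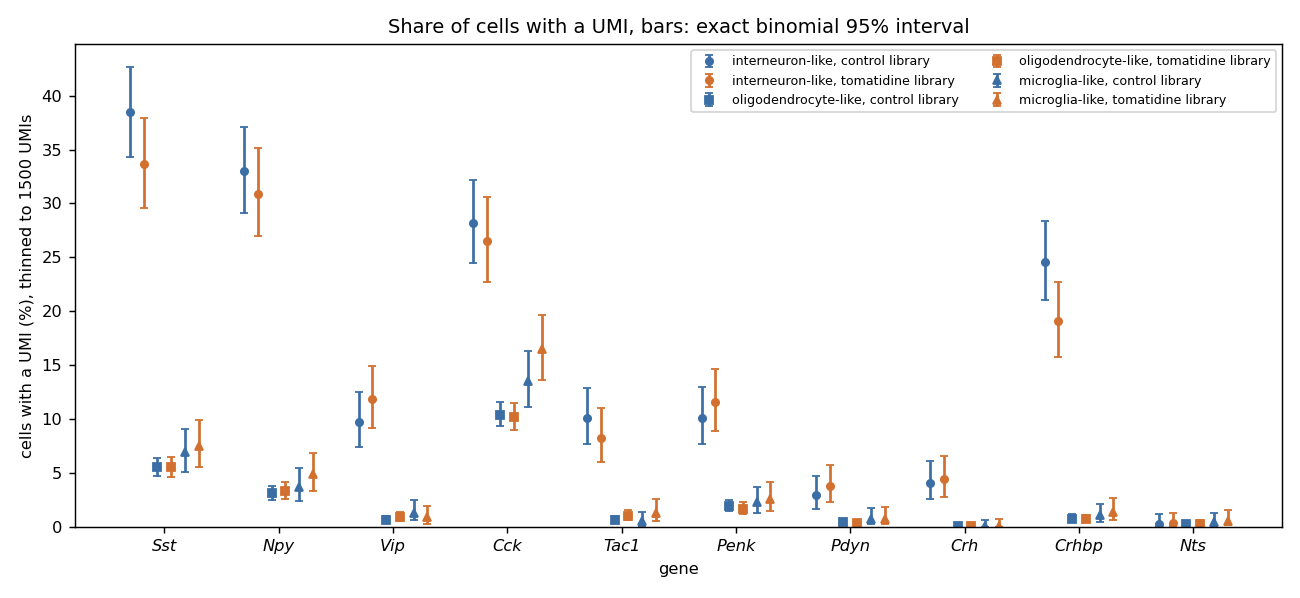
Percent of cells with at least 1 UMI of each gene after thinning to 1500 UMIs, in interneuron-like (circles), oligodendrocyte-like (squares) and microglia-like cells (triangles) of the control (blue) and tomatidine (orange) libraries, with exact binomial 95% intervals. Interneuron-like cells lie above both glial classes for 9 genes, and for Nts the shares are at or below 0.57%.

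Peptide UMIs were gathered in few cells. Among control interneuron-like cells, 198 of 565 had 5 or more Sst UMIs, with a median of 134.5 UMIs and a highest of 3445 in those cells. Among tomatidine ones it was 171 of 520, with a median of 118 and a highest of 4764, a single cell that held 10.1% of the Sst UMIs of the class. For Vip, 52 control cells had a median of 118.5 UMIs and 56 tomatidine cells one of 83.5. For Crh the counts were 25 and 24 cells, with medians of 12 and 10 UMIs. For Pdyn they were 26 and 25 cells, with medians of 14.5 and 11 UMIs. The numbers of cells with 5 or more UMIs were thus close between the libraries for Vip, Crh and Pdyn.

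The interneuron-like cells were clustered again, without the 10 genes, which gave 13 subclusters. Of these, 7 took the name of a subtype from its markers. SST-like cells numbered 83 in control and 72 in tomatidine, PV-like cells (parvalbumin) 80 and 80, CCK basket-like cells 68 and 46, VIP or calretinin-like cells 41 and 53, neurogliaform or ivy-like cells 53 and 80, and long-range-like cells, marked by Chodl and Nos1, 6 and 5. The other 6 subclusters held 418 cells without a subtype name. Of these subclusters, 3 were led by genes of astrocytes, oligodendrocytes or microglia and held 167 cells, and a shallow one (median 2445 UMIs) held 103 control and 58 tomatidine cells.

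SST-like cells carried most of the somatostatin signal, with 45431 UMIs (15946 CPM) in control and 27023 (12724 CPM) in tomatidine. A Sst UMI was found in 83 of 83 control cells (100% of them) and in 95.8% of the tomatidine cells. The same cells had Npy at 1545 and 1416 CPM, Crhbp at 803 and 599 CPM and Pdyn at 190 and 154 CPM. The 11 long-range-like cells had the highest Sst, Npy and Crhbp of the subtypes. Their Sst was at 44765 CPM in 6 control cells and 44156 CPM in 5 tomatidine cells. Npy was at 23883 and 29313 CPM in them, and Crhbp at 3750 and 2998 CPM.

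PV-like cells were the subtype with the most Tac1, at 484 CPM in control and 403 CPM in tomatidine, and had Crhbp at 367 and 360 CPM. Sst was at 939 and 1046 CPM in them. CCK basket-like cells had Cck at 3161 and 2651 CPM, from 6058 and 2787 UMIs, and Vip at 1460 and 542 CPM. The Vip UMIs of that subtype came from few cells, with 5 or more UMIs in 12 control and 3 tomatidine cells. VIP or calretinin-like cells had Vip at 6017 and 5906 CPM, Penk at 1766 and 1533 CPM and Crh at 408 and 292 CPM. These were the highest values of Vip, Penk and Crh among the subtypes in both libraries. Neurogliaform or ivy-like cells had Npy at 2282 and 1730 CPM and Cck at 370 and 412 CPM, and Vip, Pdyn, Crh and Crhbp were at no more than 1.79 CPM there in either library.

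**Figure D3:**
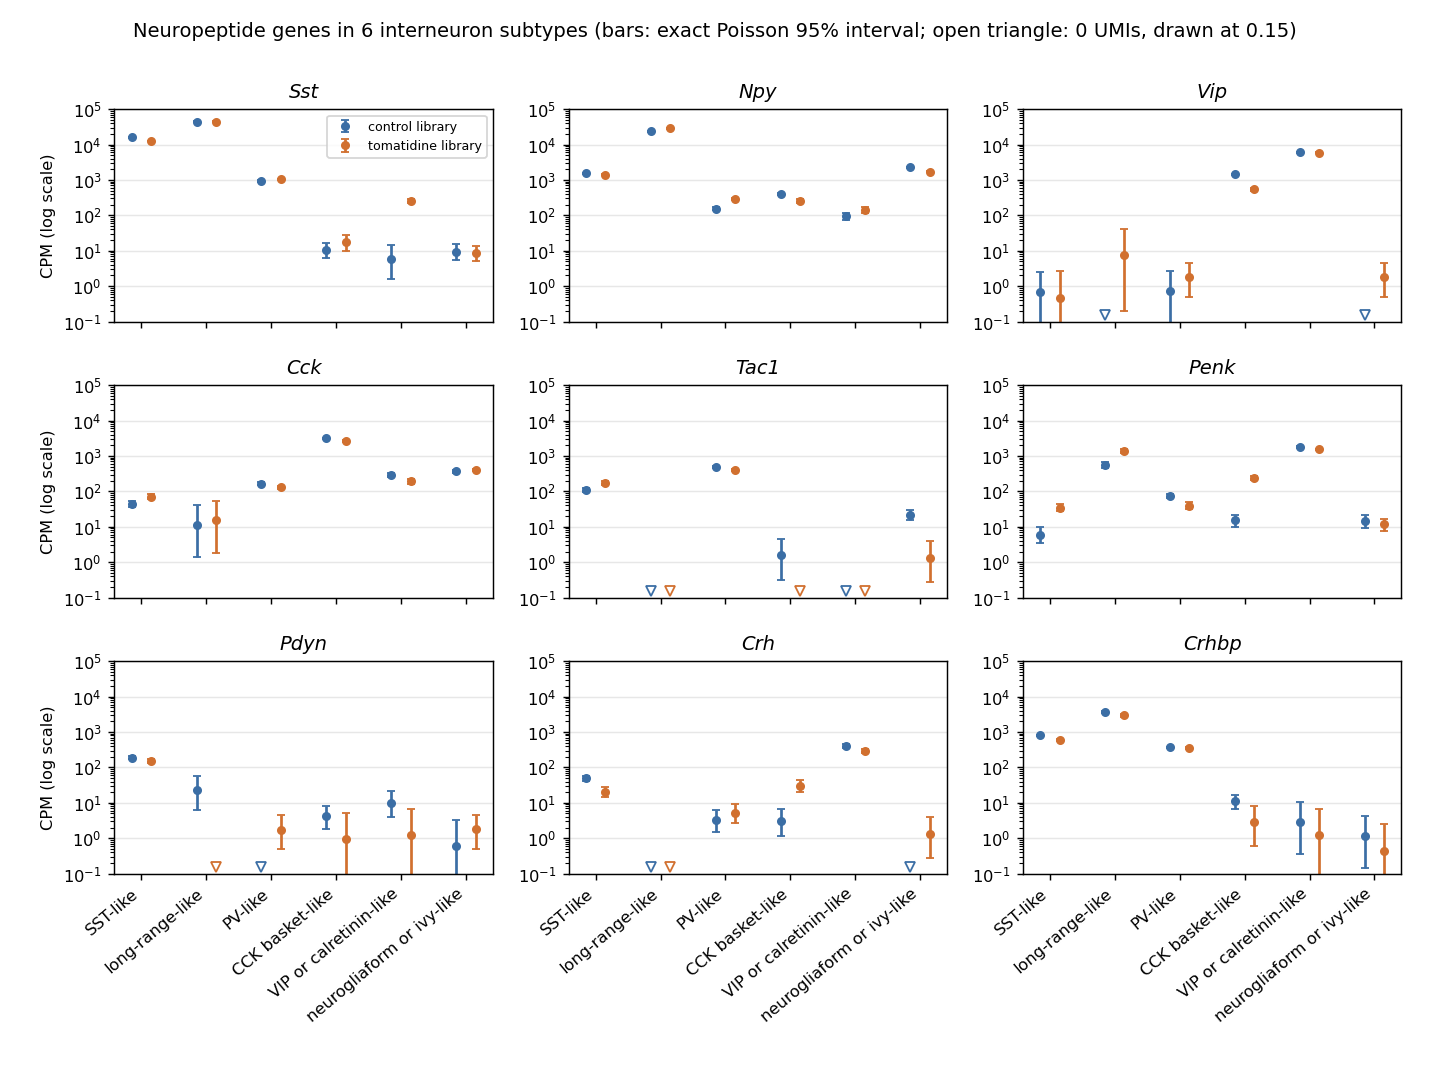
CPM (log axis) of 9 genes in 6 interneuron subtypes of the control (blue) and tomatidine (orange) libraries, with exact Poisson 95% intervals, which go on below the axis where they meet its lower edge, and open triangles where no UMI was found. Each gene peaks in the same subtype in both libraries: Sst, Npy and Crhbp in long-range-like, Tac1 in PV-like, Cck in CCK basket-like, Vip, Penk and Crh in VIP or calretinin-like, and Pdyn in SST-like cells.

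Pairs of genes were counted in interneuron-like cells with 5 or more UMIs of each. Sst and Vip rarely met in 1 cell, with 0 shared cells among 198 Sst and 52 Vip cells in control and 2 among 171 and 56 in tomatidine. Pdyn lay within the Sst cells, since 25 of 26 Pdyn cells in control and 25 of 25 in tomatidine had Sst. They made up 12.6% and 14.6% of the Sst cells. Among Crhbp cells, 111 of 150 in control and 79 of 116 in tomatidine had Sst, while 10.6% of cells without Sst had Crhbp in either library. Sst cells had Npy in 50.5% in control and 41.5% in tomatidine, against 24.0% and 26.4% of cells without Sst.

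Vip cells had Penk in 59.6% and 55.4%, against 5.07% and 6.03% of cells without Vip. Crh cells had Vip in 56.0% and 70.8%. In contrast, few Crh cells had the binding protein: 1 of 25 in control and 3 of 24 in tomatidine had Crhbp. Of cells without Crh, 27.6% and 22.8% had it. With so few Crh cells, the tomatidine share of 12.5% is loosely known. Among Tac1 cells, 39 of 65 in control and 36 of 51 in tomatidine had Crhbp, against 22.2% and 17.1% of cells without Tac1. No Tac1 cell had Vip, Pdyn or Crh among 65 control and 51 tomatidine cells. Counting all 10 genes, 154 control cells (27.3%, 23.6 to 31.1) and 170 tomatidine cells (32.7%, 28.7 to 36.9) had exactly 1 of them. The 132 control and 103 tomatidine cells with none had medians of 2911 and 3897 UMIs, against 15000 and 15178 UMIs over the class. The part of depth in that count was not tested.

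Between the libraries, 8 of the 9 genes with at least 100 UMIs in interneuron-like cells were lower in tomatidine and 1, Penk, was higher. A gene was counted as past the fold when its CPM differed at least 1.5-fold in either direction. By this rule 2 of the 9, Crhbp and Pdyn, were lower in tomatidine and none was higher, and 1.79% of all 11231 genes with at least 100 UMIs in this class were past it. The median log2 ratio was −0.34 over the 9 genes and 0.03 over the 11231.

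Crhbp had 5163 UMIs in control and 3103 in tomatidine, a log2 ratio of −0.59 (−0.65 to −0.52). Pdyn had 761 and 416 UMIs, a log2 ratio of −0.72 (−0.90 to −0.55). The ratio of Sst was −0.46 (−0.48 to −0.44), of Tac1 −0.38 (−0.47 to −0.28), of Cck −0.34 (−0.39 to −0.30), of Crh −0.25 (−0.44 to −0.06), of Vip −0.20 (−0.25 to −0.15) and of Npy −0.17 (−0.20 to −0.13). Penk had 1942 and 2132 UMIs and a ratio of 0.28 (0.19 to 0.37), which turned to −0.27 with a stricter filter on cells and to −1.63 when cells were gated on marker genes in place of the cluster.

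These ratios moved with the cells that entered. With the 13 subclusters weighted to the same mix in both libraries, the ratio was −0.45 for Crhbp, −0.55 for Pdyn, −0.28 for Sst and −0.02 for Cck, and 0 of the 9 genes were past the fold. Restricted to the cells of the 6 named subtypes, it was −0.46 for Crhbp, −0.53 for Pdyn and −0.01 for Npy, again with 0 past the fold. Without the 3 subclusters led by glial genes, Crhbp was at −0.54 and Pdyn at −0.51, and 0 were past the fold. With the mean over cells of each cell's CPM in place of summed UMIs, Pdyn turned to 0.44 and Crh to 0.16. Without the 3 top cells of each library, Sst (−0.63), Cck (−0.60) and Crhbp (−0.66) were past the fold and Pdyn (−0.45) was not. Crhbp was lower in each of these settings, and inside the fold in the first 3 of them.

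**Figure D4:**
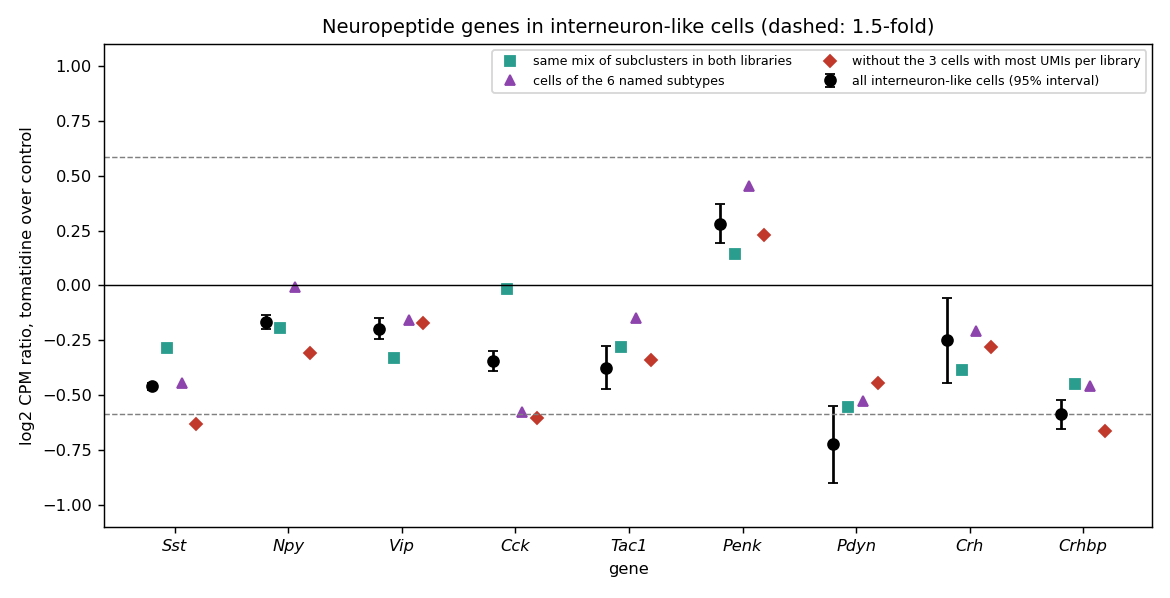
Log2 ratio of CPM, tomatidine over control, of 9 genes in interneuron-like cells: all cells with the 95% interval (black), the same mix of subclusters (green), the 6 named subtypes (purple) and all cells without the 3 with most UMIs of the gene in each library (red). Crhbp (−0.59) and Pdyn (−0.72) lie beyond the dashed 1.5-fold line in black and inside it in green and purple.

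Within single subtypes, 6 pairs of a subtype and a peptide it is known for had ratios inside the 1.5-fold limit. The share of all genes past this limit was not counted within subtypes, so these pairs are a description. Vip in VIP or calretinin-like cells had a log2 ratio of −0.03 (−0.09 to 0.03) and Sst in long-range-like cells −0.02 (−0.07 to 0.03). Cck in CCK basket-like cells was at −0.25 (−0.32 to −0.19), Sst in SST-like cells at −0.33 (−0.35 to −0.30) and Tac1 in PV-like cells at −0.27 (−0.39 to −0.14). Npy in neurogliaform or ivy-like cells was at −0.40 (−0.46 to −0.33), but the 2 subclusters of this name differed. In the one led by Nkx2-1 and Id2 the ratio was 0.09 (−0.03 to 0.21), from 978 and 1301 UMIs, and in the one led by Cplx3 and Kit it was −0.74 (−0.82 to −0.66), past the limit, from 2862 and 2568 UMIs. Crhbp was at −0.42 (−0.52 to −0.32) in SST-like cells and at −0.03 (−0.16 to 0.11) in PV-like cells. Other peptides of these subtypes passed the limit in either direction. Npy in PV-like cells had 414 and 651 UMIs and a ratio of 0.90 (0.72 to 1.08), and Penk there had 204 and 90 UMIs and a ratio of −0.94 (−1.31 to −0.57). In SST-like cells Crh had 143 and 43 UMIs and a ratio of −1.31 (−1.84 to −0.81), and Tac1 had 309 and 366 UMIs and a ratio of 0.67 (0.45 to 0.89). Cck there had 127 and 150 UMIs and a ratio of 0.66 (0.31 to 1.02). Npy in CCK basket-like cells had 775 and 263 UMIs and a ratio of −0.69 (−0.90 to −0.49). Penk in long-range-like cells had 96 and 183 UMIs and a ratio of 1.35 (0.98 to 1.72).

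For some genes in a subtype, 1 cell carried most of the sum of a library. Penk in CCK basket-like cells had 29 UMIs in control and 252 in tomatidine, of which 205 were in 1 cell. Sst in VIP or calretinin-like cells had 4 and 211 UMIs, of which 195 were in 1 cell. Vip in CCK basket-like cells fell from 2799 to 570 UMIs, a log2 ratio of −1.43 (−1.56 to −1.30), with 403 of the 570 in 1 cell. That cell was in the lower library, so the difference would be wider without it. With 41 to 68 cells of these subtypes in a library, such values describe those cells.

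In dentate granule neuron-like cells 1 of 8 genes with at least 100 UMIs was past the fold, and 1.09% of all 11929 genes were. The gene was Vip, with 77 and 93 UMIs, or 1.63 and 2.67 CPM, below its level in oligodendrocyte-like cells (5.46 and 4.79 CPM). The peptides these cells are known for were inside the fold. Penk had 5129 and 4672 UMIs and a log2 ratio of 0.30 (0.24 to 0.36), which was 0.14 without the 3 top cells of each library. Pdyn had 2768 and 2148 UMIs and a ratio of 0.07 (−0.01 to 0.15). Penk in the cluster led by C1ql2 and Plk5 was at 0.30 (0.24 to 0.36), with 5 or more UMIs in 257 of 1318 control and 200 of 1035 tomatidine cells. Cck was at 0.22 (0.18 to 0.26) in granule neuron-like cells.

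In CA1 pyramidal neuron-like cells 1 of 7 genes was past the fold, against 4.88% of all 10972 genes. This was again Vip, with 63 and 241 UMIs, of which 132 of the 241 lay in 1 cell, and its log2 ratio of 2.39 was 0.95 without the 3 top cells of each library. The abundant peptides of these cells were close in both libraries. Cck had 23923 and 16963 UMIs with a log2 ratio of −0.04 (−0.07 to −0.01), and Penk had 5493 and 3504 UMIs with a ratio of −0.19 (−0.25 to −0.13).

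In CA2 or CA3 pyramidal neuron-like cells 2 of 4 genes, Npy and Sst, were higher in tomatidine past the fold, against 2.32% of all 9955 genes. Npy had 83 UMIs in control and 283 in tomatidine, of which 203 were in 1 cell. Without the top cell of each library its ratio went from 1.94 to 0.24. Sst had 322 and 631 UMIs, and its ratio of 1.14 went to 0.29 without the 3 top cells of each library.

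In subicular or cortical neuron-like cells 4 of 6 genes were past the fold, Sst, Npy and Nts higher and Tac1 lower, against 2.29% of all 11110 genes. The Tac1 value rested on 1 control cell with 54 of 79 UMIs, and its ratio of −0.80 turned to 0.35 without the top cell of each library. Nts had 139 UMIs (8.92 CPM) in control and 221 (16.1 CPM) in tomatidine, a ratio of 0.85 (0.54 to 1.17), and 1.17 without the 3 top cells. Sst and Npy were at 31.1 and 47.4 CPM and at 7.19 and 12.3 CPM, below their levels in oligodendrocyte-like cells (53.5 and 62.8 CPM for Sst, 31.4 and 26.1 CPM for Npy). In UMIs per cell both genes were above those cells. Sst had 485 UMIs in 493 control and 651 in 478 tomatidine cells. Oligodendrocyte-like cells had 1050 in 3061 and 945 in 2373. The part of free RNA in these values was not tested.

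In excitatory neurons without a type 5 of 8 genes were past the fold, Sst, Npy, Vip, Penk and Crhbp, all higher in tomatidine, against 1.72% of all 11686 genes. In CPM, Sst, Npy and Crhbp were below their oligodendrocyte-like levels in both libraries. In UMIs per cell these genes were above them in both libraries. Penk had 639 UMIs (33.3 CPM) in 645 control cells and 2278 (92.1 CPM) in 933 tomatidine cells, a log2 ratio of 1.47 (1.34 to 1.60). The ratio was 1.26 without the 3 top cells of each library and 0.53 as a mean over cells. Penk was found in nearly the same share of thinned cells, 4.12% and 4.93%. Vip had 28 UMIs in control and 505 in tomatidine, 151 of them in 1 cell, and a ratio of 3.81 (3.26 to 4.41) that was 2.47 without the 3 top cells. Thinned Vip shares of 0.39% and 1.12% compare with 0.65% and 0.87% in oligodendrocyte-like cells. In CPM, Vip was at 1.46 in control, below the 5.46 of those cells, and at 20.4 in tomatidine, above their 4.79. Cck (20289 and 27456 UMIs) and Nts (684 and 828 UMIs) had ratios of 0.07 (0.04 to 0.10) and −0.09 (−0.24 to 0.06).

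In thalamic neuron-like cells 4 of 6 genes were past the fold, Sst, Crh and Nts higher and Npy lower, against 4.13% of all 10675 genes. Sst (57 and 83 UMIs) and Npy (254 and 56 UMIs) were, in CPM, below their oligodendrocyte-like levels in both libraries, and Crh and Nts in tomatidine were above theirs. In UMIs per cell Npy was above those cells, with 254 in 272 control and 56 in 225 tomatidine cells. Oligodendrocyte-like cells had 616 in 3061 and 393 in 2373. Nts had 22 UMIs in control and 242 in tomatidine, a log2 ratio of 4.11 (3.48 to 4.81), and it kept that size without the 3 top cells of each library (4.13). It had 5 or more UMIs in 1 of 272 control and 10 of 225 tomatidine cells. Crh had 32 and 161 UMIs, with a ratio of 2.98 (2.43 to 3.58) and of 3.43 without the 3 top cells. Npy had a ratio of −1.53 (−1.97 to −1.11), and −1.33 without the 3 top cells. The regional makeup of this class was not known for either library, and its part in these values was not tested.

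**Figure D5:**
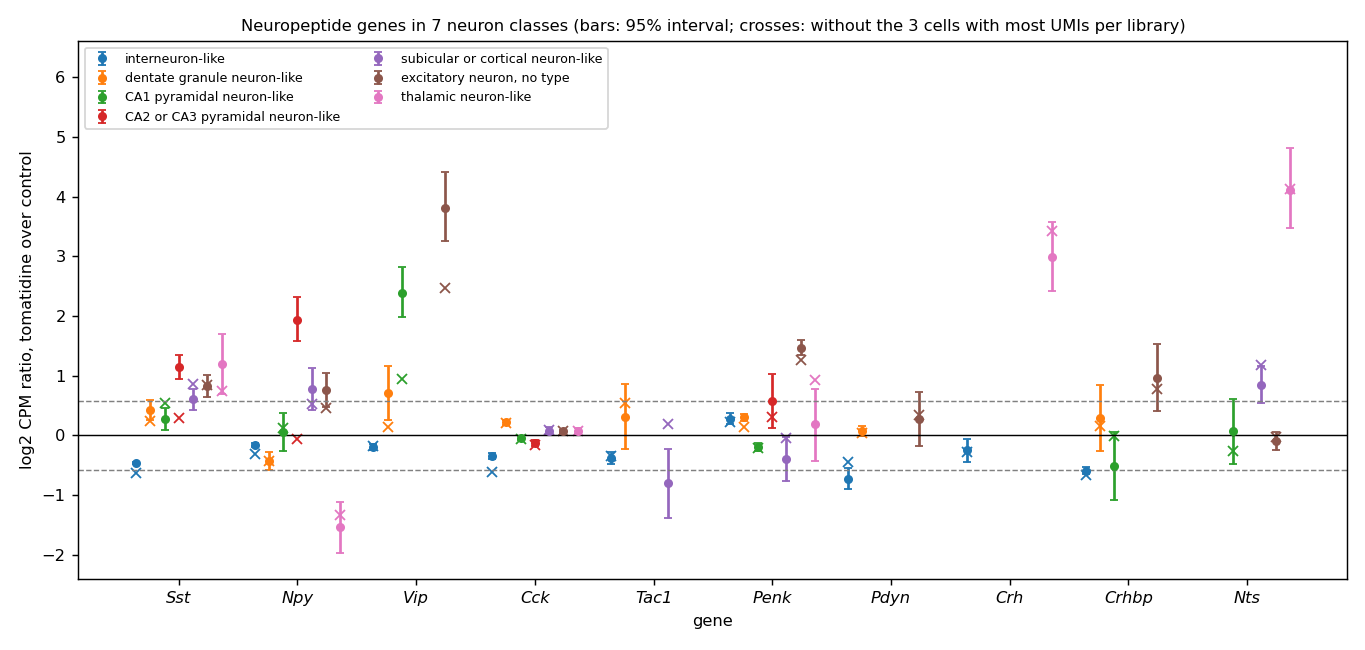
Log2 ratio of CPM, tomatidine over control, of each gene with at least 100 UMIs in a class, for 7 neuron classes (colors), with the exact conditional 95% interval and crosses for the value without the 3 cells with most UMIs of the gene in each library. Cck lies between −0.34 and 0.22 in all 7 classes, and the crosses of Npy and Sst in CA2 or CA3 pyramidal neuron-like cells and of Tac1 in subicular or cortical neuron-like cells lie far from their points.

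Over all kept cells, totals of several genes moved with the makeup of the libraries. In such totals, fewer cells of a type and less RNA per cell cannot be told apart. Tac1 had 5227 UMIs in control and 7195 in tomatidine, a log2 ratio of 0.50 (0.45 to 0.56), which became 1.03 without the striatal projection neuron-like cells and −0.03 without the 5 clusters in which a library had over 3 times the share of cells of the other. Most of the tomatidine Tac1 UMIs, 4596, were in the Ebf3 and Pou4f2 cluster, which had 193 in control. Penk was at −0.39 over all cells, at 0.27 without the striatal cells and at 0.07 without the 5 uneven clusters. Pdyn was at −0.57, −0.39 and −0.30 in the same order. Nts was at 0.30, 0.34 and 0.65. Sst (−0.32, −0.33 and −0.37) and Crhbp (−0.53, −0.54 and −0.50) moved less. Without the 5 uneven clusters, 7 of the 10 ratios left the counting interval of the value over all cells.

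Of the other genes of peptide signalling, 16 of 22 receptors of the 10 peptides had at least 100 UMIs in interneuron-like cells, and 1 of the 16 was past the fold. It was Npy2r, the presynaptic Y2 receptor of neuropeptide Y, with 240 UMIs in control and 421 in tomatidine and a log2 ratio of 0.96 (0.73 to 1.19). The lowest of the 16 was Npy5r at −0.52 (−0.91 to −0.14), from 148 and 93 UMIs. All 13 genes of peptide processing and dense-core vesicles had at least 100 UMIs, and 0 were past the fold. They ranged from Vgf, a granin-like cargo protein, at −0.33 (−0.38 to −0.29) to Pcsk1, a convertase that cuts precursors, at 0.09 (−0.08 to 0.26). Of 26 other neuropeptide genes in the files, 11 had at least 100 UMIs and 0 were past the fold, between Cartpt at −0.51 (−0.69 to −0.34) and Npff at 0.45 (−0.03 to 0.93). Median ratios were 0.05, −0.10 and 0.08 for these lists, against 0.03 over all genes.

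In thalamic neuron-like cells, where 4.13% of all genes were past the fold, 5 of 11 receptors were higher past the fold (Sstr1, Npy1r, Npy5r, Crhr1 and Ntsr2) and 0 lower. Crhr1, the main CRH receptor, had 178 UMIs in control and 328 in tomatidine, a log2 ratio of 1.53 (1.27 to 1.80). Of 8 other peptide genes 4 were higher (Adcyap1, Cartpt, Nppc and Pomc) and 1, Gal, lower. Cartpt had 111 and 657 UMIs and a ratio of 3.22 (2.92 to 3.52), and Gal had 141 and 19 UMIs and a ratio of −2.24 (−3.01 to −1.54). Among 13 processing genes 1 was higher, Cadps2, at 1.02 (0.45 to 1.60).

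In granule neuron-like cells 1 of 15 receptors, Cckbr, was past the fold at 0.87, against 1.09% of all genes. In CA1 pyramidal neuron-like cells it was 2 of 14, Oprm1 at 1.85 and Oprd1 at 0.68, with Nmb at 1.05 among 7 other peptides, against 4.88% of all genes. In CA2 or CA3 pyramidal neuron-like cells 1 of 12 receptors was lower, Sstr2 at −0.81, against 2.32% of all genes. In subicular or cortical neuron-like cells 1 of 14 receptors was higher, Ntsr2 at 1.12, and of 9 other peptides Adcyap1 (0.87) and Cartpt (0.79) were higher and Pomc (−0.79) lower, against 2.29% of all genes. In excitatory neurons without a type 0 of 17 receptors were past the fold, and of 9 other peptides Cort was higher (1.68) and Cartpt lower (−1.12), against 1.72% of all genes. No processing gene was past the fold in these 5 classes.

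Genes with a like pattern were found by the Pearson correlation of log2(CPM + 1) over the 35 clusters with at least 50 cells, among 14026 genes with at least 200 UMIs, with both libraries summed. The clusters share libraries and free RNA, so the values are a description. All interneuron-like cells formed 1 of these clusters, so a high value does not show that genes share cells. Of cells with 5 or more Vip UMIs in that cluster, 2 of 52 in control and 4 of 56 in tomatidine had 5 or more of Npy. Without the 5 clusters of uneven share, 30 clusters remained. Sst was most like Crhbp (r = 0.85), Rxfp3 (0.82), a relaxin-family receptor, and Htr3a (0.80). Npy was most like Lhx6 (0.81), a regulator of interneuron fate, Vip (0.79) and Crhbp (0.78). Vip was most like Cort (0.81), Krt73 (0.80) and Npy (0.79), and Crhbp like Krt73 (0.85), Sst (0.85) and Lhx6 (0.84). For these 4 genes the 12 values were between 0.78 and 0.89 over the 30 clusters.

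For the other genes named here the companions differed. Tac1 was most like Syt6 (0.89), Gpr149 (0.86) and Kctd8 (0.85), and Cck like Fkbp1b (0.79), Kcnk4 (0.78) and Car7 (0.76). For Crh they were Tcap (0.83), Neb (0.76) and Kcnc2 (0.74), for Penk Dchs2 (0.76), Slc35d3 (0.75) and Clip4 (0.74), and for Pdyn Krt9 (0.78), Sytl5 (0.72) and Hypm (0.71). Over the 30 clusters the values of Penk were between 0.54 and 0.65, those of Pdyn between 0.59 and 0.73, and those of Tac1 between 0.71 and 0.83.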

How the data were processed

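The authors dissociated flash-frozen tissue into fixed cells, used a probe-based kit (10x Fixed RNA Profiling), aligned to mm10 and deposited filtered matrices of UMI counts, whole numbers without normalization. The submitters' notes name Cell Ranger 8.0.0 and the file headers 7.1.0.

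The study gives more than 1 set of thresholds. Following the first, cells with at least 500 UMIs, over 250 genes, a log10 gene to log10 UMI ratio above 0.8 and under 20% mitochondrial UMIs were kept. The study's other set has limits of 200 and 6000 genes and a lower mitochondrial limit. The stricter filter was built on it, with under 10% mitochondrial UMIs. The 2% with the highest Scrublet scores per library were removed (scanpy 1.11.5), since its own threshold called 0 and 2 cells. Integration (RPCA) and clustering were done with Seurat 5.3.0 (R 4.3.3; 2000 variable genes, 30 components, resolution 0.8), and interneuron-like cells again (1500 genes, 20 components), both without the members and gene lists. A class needed 3 markers raised 2-fold. The naming rule was revised after the clusters were seen, and names are rebuilt, not the study's.

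Ratios have exact conditional binomial, sums exact Poisson, shares exact binomial and differences of shares Newcombe intervals. edgeR 4.0.16 served only to compute TMM scaling factors. The code was tested on simulated counts. All 10 genes are named, with list genes past the fold or at either end in interneurons and the 3 most alike. The genes most like Nts are not reported here. Members and lists were chosen with earlier results of these data known. Alternatives covered scaling, cell filter, doublets, integration, resolution, gate, free RNA, top cells, subtype mix and thinning.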

Additional observations from a re-analysis of the deposited data

Results flagged for a closer look

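Differences between classes in opposite directions were found for Npy and Crhbp, each past 1.5-fold with an interval that excludes 0 in both classes, and the difference between the classes was not tested. Npy was lower in tomatidine in thalamic neuron-like cells (log2 ratio −1.53) and higher in CA2 or CA3 pyramidal neuron-like cells (1.94), subicular or cortical neuron-like cells (0.78) and excitatory neurons without a type (0.76). Of the 283 tomatidine Npy UMIs in CA2 or CA3 pyramidal neuron-like cells, 203 were in 1 cell. Crhbp was lower in tomatidine in interneuron-like cells (−0.59) and higher in excitatory neurons without a type (0.96), where 39 and 98 UMIs were found. In the latter it kept its sign in 6 of 9 alternatives and was, in CPM, below its oligodendrocyte-like level in both libraries. Npy was also, in CPM, below that level in the thalamic, the subicular or cortical and the untyped class, in both libraries. In UMIs per cell, Npy in these classes and Crhbp in the untyped one were above oligodendrocyte-like cells.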

How the results depend on the processing

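No paired analysis was possible because each group is 1 library, and no replicate could be left out. With 1 library per group, no alternative says anything about the spread between mice. In interneuron-like cells, 2 genes past 1.5-fold became 1 with the mean over cells, 4 with a filter of 200 to 6000 genes and under 10% mitochondrial UMIs, 8 with a gate on marker genes (1337 control and 1664 tomatidine cells, of which 526 and 498 lay in the cluster), and 0 with the same mix of subclusters, without the glia-led subclusters or without the unnamed ones, the latter alternatives chosen after seeing the data. Pdyn turned to 0.44 with the mean over cells and to 1.81 with the stricter filter.

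The 1 granule gene became 0 with the mean over cells, with oligodendrocyte CPM subtracted, without the top cell or the top 3, without doublet removal and with the stricter filter. The subtraction was made in CPM, so it took more UMIs from deeper cells. A gene that it removed is thus not shown to be free RNA. The 1 CA1 gene became 2 with TMM factors, the median of gene ratios, no doublet removal and resolutions 0.4 and 1.5, and 0 with the subtraction and the stricter filter. The 2 CA2 or CA3 genes became 0 with the subtraction, 1 without the top cell and 0 without the top 3, where Npy turned to −0.062. The 4 subicular or cortical genes became 1 with the subtraction and 2 without the top 3 cells and with the stricter filter. Tac1 turned there to 0.35 without the top cell, 0.19 without the top 3, 0.045 without doublet removal and 0.13 with the stricter filter. The 5 genes of excitatory neurons without a type became 1 with the mean over cells and with the subtraction, 3 without doublet removal and at resolution 1.5, and 2 with the stricter filter. Sst (−0.32) and Crhbp (−0.13) turned there with the mean over cells, Npy (−0.58) and Crhbp (−0.95) without doublet removal, and Crhbp (−0.28) at resolution 1.5. The 4 thalamic genes became 2 with the subtraction and 0 with the stricter filter, since Crh and Nts were then under 100 UMIs. Their ratios were 2.22 for Crh, from 3 UMIs in control and 7 in tomatidine, and 1.80 for Nts, from 8 and 14. That filter also turned Sst there (−0.34), Vip in granule (−0.13) and CA1 (−1.24) cells, and Sst (−0.22) and Npy (−0.38) in subicular or cortical cells. Cells were clustered anew under it, so its classes do not hold the same cells. The subicular or cortical class had 1381 control and 1543 tomatidine cells, against 493 and 478 before. The thalamic class had 343 and 175 (272 and 225 before) and the interneuron-like class 439 and 556 (565 and 520 before). CA1 cells numbered 275 and 296 (700 and 639 before). The cause of these turns was not tested. Counts also rose under some alternatives. The highest count was 6 in subicular or cortical, 3 in CA2 or CA3 and 5 in thalamic cells.

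The percent of all genes past the fold rose with a minimum of 20 UMIs, and again with at least 1 UMI in each library. It was 6.18 and 12.2 in interneuron-like, 4.57 and 9.73 in granule, 9.88 and 15.2 in CA1, 7.08 and 14.3 in CA2 or CA3, 6.43 and 13.2 in subicular or cortical, 5.73 and 11.9 in excitatory cells without a type, and 8.77 and 15.9 in thalamic cells. The stricter filter gave no CA2 or CA3 class and resolution 0.4 no excitatory class without a type, so these have no value.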
